A study of Mus musculus with 2 samples.

Results

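The genes described here encode the proteins that bring glucose into a cell, split it to pyruvate and lactate, carry lactate across the membrane, gate pyruvate at the mitochondrion and divert glucose carbon into the pentose phosphate pathway. A list of 33 such genes was taken by symbol, and every probe set whose platform annotation gave exactly 1 of those symbols was used. Of the 33 genes, 28 had such a probe set (33 probe sets in all), out of 22180 genes on the array. Aldoa and Tkt were represented only by probe sets that carried several symbols, and Gpi1, Eno1 and G6pdx had no annotated probe set, so these 5 genes were not analysed here.

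RNA came from mouse dendritic cells grown from bone marrow, called GMDC by the submitters, in 2 cultures. One culture received conditioned medium of topotecan-treated E0771 cells, a mouse mammary tumour line exposed to a topoisomerase I inhibitor, and the other was the control. Each was measured on 1 array, so every difference is between 2 arrays and has no replicate error, and no test could be made. Nothing in the labels tells which medium the control cells had, so topotecan treatment of the tumour cells and tumour-conditioned medium as such cannot be told apart. Strain and age of the mice, topotecan dose and length of culture are not stated there.

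Glycolysis converts glucose to pyruvate with a small yield of ATP. It is controlled chiefly at glucose entry, at hexokinase and at phosphofructokinase. Dendritic cells that are activated through Toll-like receptors raise their glucose use and release lactate, and the pentose phosphate pathway supplies NADPH and ribose from the same glucose phosphate. The transcription factor HIF raises many genes of this pathway when oxygen is low or when myeloid cells are activated.

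With conditioned medium, the glucose transporter gene Slc2a6 was 4.37-fold higher, and the phosphofructokinase regulator gene Pfkfb3 was 4.11-fold higher, or 3.56-fold against the filter level described next, since its control value lay under it. The lactate carrier genes Slc16a1 and Slc16a3 were 2.10-fold and 2.01-fold higher. Of the enzymes between phosphofructokinase and pyruvate kinase, Aldoc was 2.02-fold lower and the others measured above background were near their control values. Levels are log2 intensities, and a difference is the conditioned-medium value minus the control value. A gene was kept when the higher of its 2 values reached 4.10, the median of all values on both arrays, since lower values may be background. This kept 26 of the 28 measured genes, Pfkfb3 only through its conditioned-medium value. Slc2a3 and Pfkm lay under that level on both arrays. Of the 26, 4 were at least 2-fold higher (15.4%, against 8.63% of all 13712 kept genes) and 1 was at least 2-fold lower (3.85%, against 6.84%). The median log2 difference of the 26 was -0.04, next to -0.07 over all kept genes, so the middle of the list stood near that of the array. The quartiles of the 26 lay higher, at -0.27 and 0.63, against -0.45 and 0.36 over all kept genes.

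At 1.5-fold, 8 of the 26 were higher (against 16.6% of all kept genes) and 1 lower (against 17.9%), and at 3-fold 2 were higher (against 4.14%) and 0 lower (against 2.11%).

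The only error that these arrays hold is the disagreement between probe sets of the same gene, whose log2 differences had a pooled SD of 0.46 within genes. Of the 26 kept genes, 14 (53.8%) had a difference no larger than this SD, against 55.0% of all kept genes. How far cultures of 1 condition differ is not part of this SD.

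**Figure D1:**
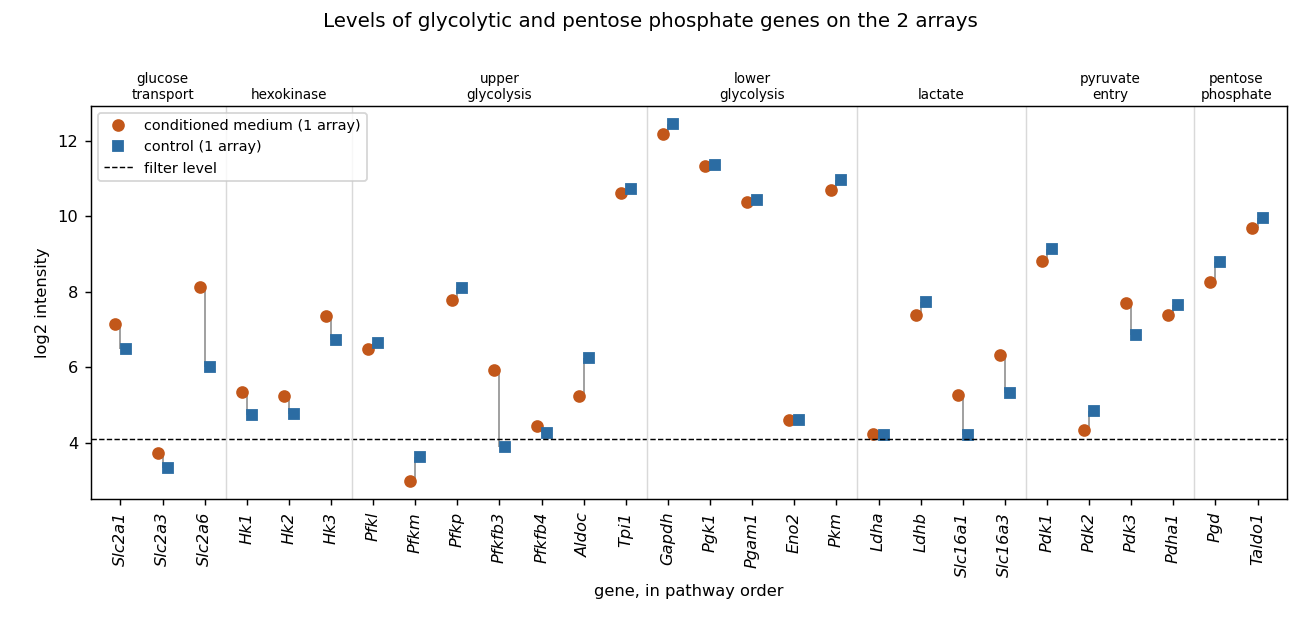
Log2 intensity of the 28 measured genes in pathway order, with conditioned medium (circles, 1 array) and in the control (squares, 1 array), and the filter level as a dashed line. Slc2a6 and Pfkfb3 are the pairs set farthest apart, and Slc2a3 and Pfkm lie under the line on both arrays; heights of different genes are not comparable because each probe set has its own response.

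The upstream sequences of the 4 genes that were at least 2-fold higher are shown because members of this pathway are known HIF targets and the gene of HIF's alpha subunit was itself higher (described with the regulators). Each is the 250 bases before an annotated start site, 5′ to 3′ along the gene, from RefSeq on GRCm38.p6. Capitals mark ACGTG, a form of the core of the HIF binding site, on either strand. The run CACGTG is an E-box that holds these letters on both strands. GCGTG, the other form of the core, was neither marked nor counted.
Slc2a6, chr2:27027999-27028248, minus strand: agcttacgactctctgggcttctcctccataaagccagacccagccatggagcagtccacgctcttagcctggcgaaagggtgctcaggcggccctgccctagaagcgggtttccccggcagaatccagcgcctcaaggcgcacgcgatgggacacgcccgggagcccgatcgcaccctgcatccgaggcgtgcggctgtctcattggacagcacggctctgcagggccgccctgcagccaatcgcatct
Pfkfb3, chr2:11553930-11554179, minus strand: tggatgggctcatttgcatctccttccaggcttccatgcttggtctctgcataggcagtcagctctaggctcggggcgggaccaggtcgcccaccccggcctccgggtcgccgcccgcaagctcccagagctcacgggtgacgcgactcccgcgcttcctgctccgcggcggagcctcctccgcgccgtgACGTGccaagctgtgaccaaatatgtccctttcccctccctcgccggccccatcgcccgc
Pfkfb3, chr2:11502091-11502340, minus strand: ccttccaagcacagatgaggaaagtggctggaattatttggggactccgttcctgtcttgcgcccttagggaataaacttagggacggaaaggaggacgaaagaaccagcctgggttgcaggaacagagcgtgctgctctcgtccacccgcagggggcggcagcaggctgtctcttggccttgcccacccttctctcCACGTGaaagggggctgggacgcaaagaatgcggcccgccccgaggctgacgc
Slc16a1, chr3:104638414-104638663, plus strand: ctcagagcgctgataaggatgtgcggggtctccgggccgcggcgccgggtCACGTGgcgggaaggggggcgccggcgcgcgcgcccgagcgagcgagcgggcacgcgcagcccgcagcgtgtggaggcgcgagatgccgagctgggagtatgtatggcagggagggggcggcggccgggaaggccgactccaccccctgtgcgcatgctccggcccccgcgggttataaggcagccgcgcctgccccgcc
Slc16a3, chr11:120948817-120949066, plus strand: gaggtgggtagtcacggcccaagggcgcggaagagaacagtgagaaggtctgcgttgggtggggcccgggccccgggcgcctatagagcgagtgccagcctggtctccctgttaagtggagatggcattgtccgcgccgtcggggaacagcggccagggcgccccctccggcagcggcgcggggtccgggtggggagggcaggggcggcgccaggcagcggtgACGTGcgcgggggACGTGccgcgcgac

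Slc2a6 had no ACGTG in its window. Both windows of Pfkfb3 and that of Slc16a1 had it in 1 place each, and Slc16a3 had it in 2 places. In Slc16a1 and in 1 of the Pfkfb3 windows the place was the E-box CACGTG. Over the whole list, 17 of 47 windows (36.2%, from 32 genes) held ACGTG, against 17.8% of the 21263 windows of protein-coding genes. Among the kept genes that stayed under 2-fold, 9 of 21 held it, among them Hk2, Slc2a1, Pgk1 and Ldha, and Aldoc did not. The uncounted GCGTG was present in the windows of Slc2a6 and Aldoc, and also in those of Slc16a1 and 1 of the Pfkfb3 windows. Its share over all windows was not determined, so nothing is read from it. These are matches of letters in short windows and not sites of binding. Whether HIF acts on any of these genes in these cultures was not tested.

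Glucose enters cells through transporters of the GLUT family. Slc2a6, whose product GLUT6 is found largely on lysosomal membranes in mouse macrophages, had a log2 intensity of 8.13 with conditioned medium and 6.00 in the control (probe set 17383216). It was 4.37-fold higher, and both values lay well above the filter level. Slc2a1, the gene of the widespread surface transporter GLUT1, had 7.13 with conditioned medium and 6.49 in the control, a difference of 0.65. Its other probe set gave a difference of 0.77 (4.20 with conditioned medium and 3.43 in the control), with the control value under the filter level. Slc2a3, the gene of the high-affinity transporter GLUT3, had 3.73 with conditioned medium and 3.33 in the control, a range in which no level can be told from background.

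Hexokinases trap glucose in the cell by phosphorylating it. All 3 isoforms of the list were slightly higher and none reached 2-fold. Hk2, the usual inducible isoform, had 5.24 with conditioned medium and 4.76 in the control, a difference of 0.48. Hk1, the broadly expressed isoform, differed by 0.62 (5.35 with conditioned medium and 4.74 in the control). Hk3, the isoform typical of myeloid cells, differed by 0.63 (7.36 with conditioned medium and 6.73 in the control). Each of the 3 differences was larger than the SD between probe sets, that of Hk2 only just. Hkdc1, from a further list and named after its values were seen, had 3.86 with conditioned medium and 3.78 in the control, both under the filter level.

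Phosphofructokinase is the main committed step, and the bifunctional enzymes of the Pfkfb family set the level of its strongest activator. Pfkfb3, the isoform with the highest kinase activity, had 5.93 with conditioned medium and 3.89 in the control (probe set 17381630). The size of its difference is uncertain, because the control value may be background. Pfkfb4, another isoform, had 4.46 with conditioned medium and 4.27 in the control, both close to the filter level.

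The subunits of phosphofructokinase itself did not share that difference. Pfkp, the platelet-type subunit, had 7.78 with conditioned medium and 8.11 in the control, a difference of -0.32. Pfkl, the liver-type subunit, had 6.50 with conditioned medium and 6.65 in the control, a difference of -0.15. Pfkm, the muscle-type subunit, had 2.98 with conditioned medium and 3.63 in the control, both under the filter level.

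Aldolase splits the hexose into 2 trioses. Aldoc, the brain-type isoform, had 5.23 with conditioned medium and 6.25 in the control (probe set 17253599) and was 2.02-fold lower. Its difference of -1.02 only just passed 2-fold, and it was -0.95 when the differences were centred on the kept genes. Tpi1, which interconverts the trioses, had 10.60 with conditioned medium and 10.72 in the control, a difference of -0.12.

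Lower glycolysis, which returns ATP and NADH, was nearly level on the 2 arrays. Of 5 kept genes, 0 passed 2-fold upward (against 8.63% of all kept genes) or downward (against 6.84%). All 5 differences were smaller than the SD between probe sets. Gapdh, the glyceraldehyde-phosphate dehydrogenase gene, had 12.17 with conditioned medium and 12.44 in the control. Its 3 probe sets gave differences of -0.27, -0.23 and -0.41, all below 0. The last of these had a conditioned-medium value of 4.06, under the filter level. Pkm, the pyruvate kinase gene, differed by -0.27 (10.68 with conditioned medium and 10.95 in the control).

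Pgk1, the phosphoglycerate kinase gene, had 11.32 with conditioned medium and 11.35 in the control. Pgam1, the phosphoglycerate mutase gene, differed by -0.06 in its brighter probe set (10.37 with conditioned medium and 10.42 in the control) and by 0.48 in its dimmer one (6.92 with conditioned medium and 6.44 in the control), so its probe sets disagreed in sign. Eno2, the neuronal enolase isoform, had 4.61 with conditioned medium and 4.60 in the control. The signs of Tpi1, Pgk1 and Pgam1 turned to 0.04, 0.13 and 0.09 when a smooth curve of the difference on the level was subtracted, so no direction is given for them. The highest values of the arrays were 13.50 with conditioned medium and 13.42 in the control, and a probe set as bright as Gapdh may be compressed. Gapdh, Pgk1, Pgam1, Tpi1 and Pkm have near-identical gene copies, and 8 further probe sets carried the Gapdh symbol together with another.

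**Figure D2:**
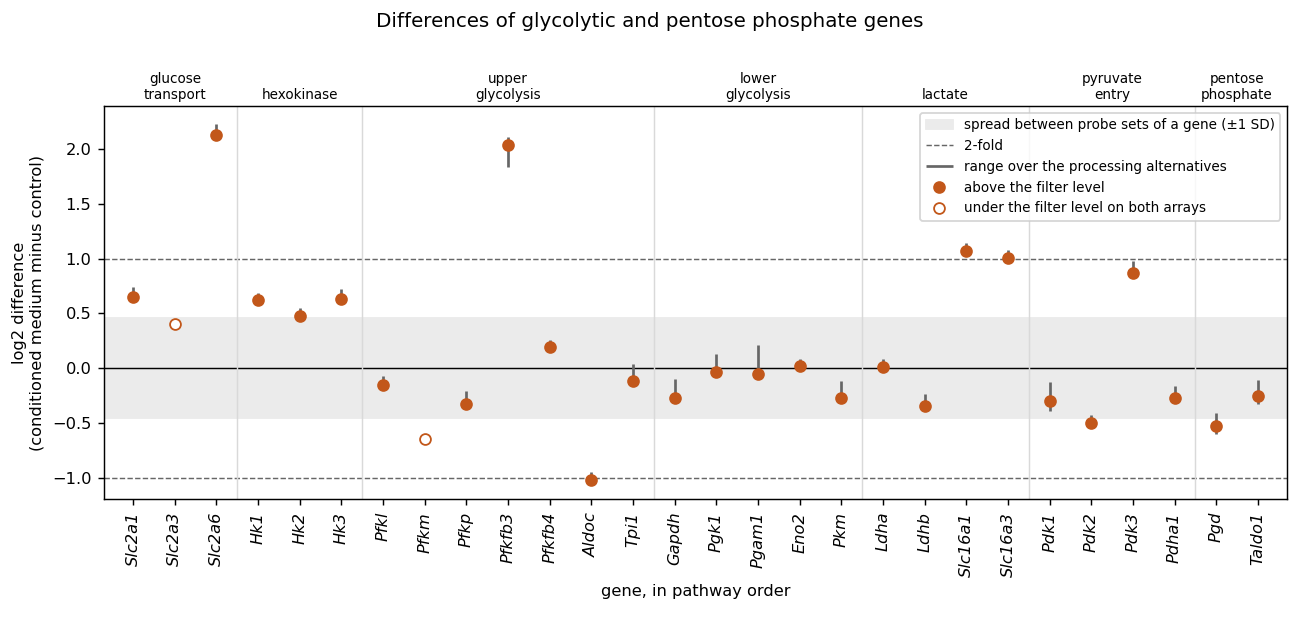
Log2 difference (conditioned medium minus control) of the 28 measured genes in pathway order, with vertical lines for the range over the processing alternatives, a grey band for the SD of 0.46 between probe sets of a gene and dashed lines at 2-fold. Slc2a6 and Pfkfb3 stand near 2, Slc16a1 and Slc16a3 on the upper dashed line, Aldoc on the lower one, and the genes of lower glycolysis inside the band.

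Pyruvate is reduced to lactate by lactate dehydrogenase, and lactate leaves or enters through monocarboxylate carriers. Slc16a1, the gene of the carrier MCT1, had 5.28 with conditioned medium and 4.21 in the control (probe set 17401335). It was 2.10-fold higher, although in the control it barely reached the filter level. Slc16a3, the gene of MCT4, the carrier known for lactate export from glycolytic cells, had 6.33 with conditioned medium and 5.32 in the control (probe set 17259534). It was 2.01-fold higher, at the edge of the size rule, with a difference of 0.98 after quantile normalization.

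Neither measured subunit gene of the dehydrogenase had a higher value beyond 0.01. Ldhb, the heart-type subunit, differed by -0.34 (7.40 with conditioned medium and 7.74 in the control). Ldha, the muscle-type subunit that favours lactate formation, had 4.23 with conditioned medium and 4.22 in the control. This probe set lay at the filter level on both arrays, so it gives little information on Ldha.

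The pyruvate dehydrogenase complex admits pyruvate to the mitochondrion's cycle, and the Pdk kinases switch it off. Pdk3 had 7.71 with conditioned medium and 6.84 in the control, a difference of 0.87 and the largest among kept genes of the list that stayed under 2-fold. Pdk2 had 4.34 with conditioned medium and 4.84 in the control, a difference of -0.50. Pdk1, an HIF target, differed by -0.30 in its brighter probe set (8.82 with conditioned medium and 9.12 in the control) and by 0.04 in the other. Pdk3 and Pdk2 thus pointed different ways. Pdha1, the catalytic alpha subunit of the complex, differed by -0.28 (7.38 with conditioned medium and 7.66 in the control).

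Both genes of the list that were measured in the pentose phosphate pathway were slightly lower. Pgd, the phosphogluconate dehydrogenase gene that yields NADPH in the oxidative branch, had 8.26 with conditioned medium and 8.80 in the control, a difference of -0.53. Taldo1, the transaldolase gene of the non-oxidative branch, had 9.69 with conditioned medium and 9.94 in the control, a difference of -0.25. Neither difference passed 2-fold, and only that of Pgd was larger than the SD between probe sets. Other enzymes of this pathway, named after their values were seen, belong to a further list described below. Among them Rpia (0.64) and Rpe (0.48) were higher and Pgls (-0.81) was lower, so the measured pathway genes did not share a direction.

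**Figure D3:**
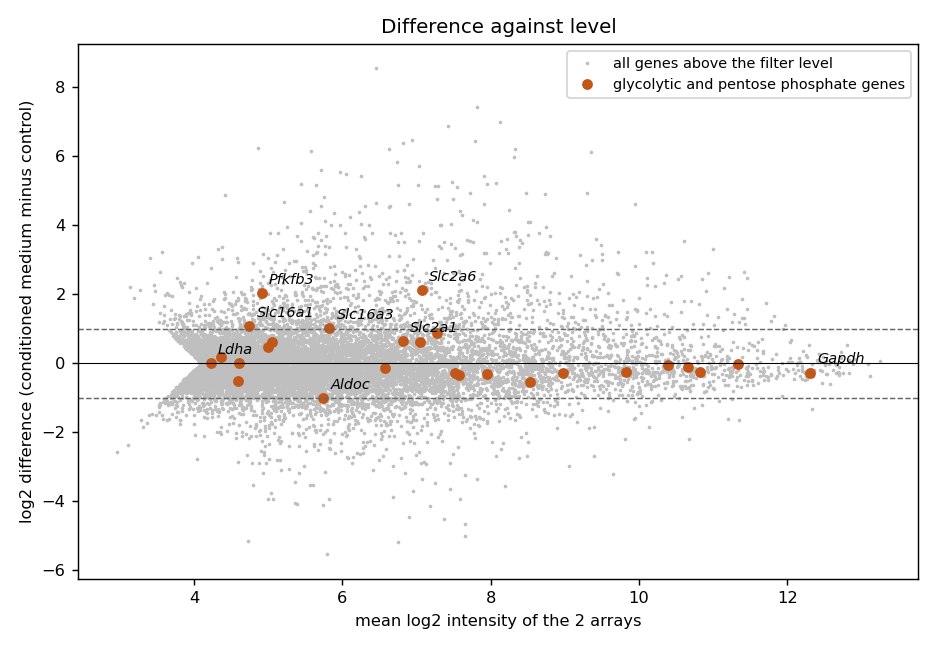
Log2 difference against the mean log2 intensity of the 2 arrays for the 13712 kept genes (grey) and the 26 kept genes of the list (orange). Most of the orange points lie inside the dashed 2-fold lines, and those at the bright end lie just under 0 as deposited (Tpi1, Pgk1 and Pgam1 turn above it when the smooth curve is subtracted); the notch at the dim end is made by the filter.

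Genes that act beside these steps were taken as further lists. Other isoforms, enzymes and carriers of the same steps had a median difference of -0.20 over 30 kept genes, and 2 passed 2-fold in each direction. These shares of 6.67% each were not above those of all kept genes (8.63% higher and 6.84% lower). Mpc1, a subunit of the mitochondrial pyruvate carrier, was 2.40-fold higher (9.90 with conditioned medium and 8.64 in the control), and its other probe set differed by 0.90. Pdk4, another kinase of pyruvate dehydrogenase, was 2.27-fold higher (5.66 with conditioned medium and 4.47 in the control). Slc16a7, the gene of the monocarboxylate carrier MCT2, was 2.42-fold lower (4.48 with conditioned medium and 5.75 in the control), unlike Slc16a1 and Slc16a3. Rbks, the ribokinase gene, was 2.22-fold lower (5.95 with conditioned medium and 7.10 in the control). Other genes of the Slc2a family were named after their values were seen. Of those kept, Slc2a8, Slc2a10, Slc2a9 and Slc2a13 had differences of -0.78, -0.40, -0.28 and -0.03, and Slc2a4 had 0.11. Only that of Slc2a8 was larger than the SD between probe sets. The conditioned-medium value of Slc2a13 and the control value of Slc2a4 lay under the filter level. The list's median was -0.42 with the filter at the 75th percentile and -0.13 when centred on the kept genes.

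Among regulators, 5 of 21 kept (23.8%, against 8.63% of all kept genes) passed 2-fold upward and 0 (against 6.84%) downward. The median was 0.40, but 0.19 with low values set to the filter level and 0.66 with the filter at the 75th percentile, and the list was chosen with earlier results of these data known. Hif1a, the gene of the oxygen-regulated subunit of HIF, had 9.15 with conditioned medium and 7.96 in the control and was 2.27-fold higher, and its other probe set pointed the same way (6.22 with conditioned medium and 5.02 in the control). Myc, a transcription factor that activates glycolytic genes, was 2.20-fold higher (6.80 with conditioned medium and 5.67 in the control). Arrdc4 (2.86-fold) and Txnip (2.12-fold) were also higher; they encode related arrestin-type proteins, and the product of Txnip lowers glucose uptake. Prkaa1, a catalytic subunit of the energy sensor AMPK, was 2.09-fold higher. The lowest were Akt1 (-0.65), a kinase of insulin signalling, and Mlxipl (-0.49), a glucose-responsive transcription factor whose value with conditioned medium lay under the filter level.

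Of the HIF targets outside glycolysis, 5 of 13 kept (38.5%, against 8.63% of all kept genes) passed 2-fold upward and 0 (against 6.84%) downward, or 1 downward after quantile normalization. The median was 0.53, and this list too was chosen with earlier results known. Hilpda, a lipid droplet protein gene, had 11.22 with conditioned medium and 7.62 in the control and was 12.2-fold higher. Adm, the adrenomedullin gene, was 2.63-fold higher. The other 3, named after their values were seen, were Ddit4, Bnip3 and P4ha1, with differences of 1.11, 1.09 and 1.05. Ndrg1 (-0.98) and Car9 (-0.91) were the lowest. Their other probe sets gave -0.32 and -0.30, both smaller than the SD between probe sets. Of the 13 genes, 9 lay above 0 and 4 below, so the HIF targets did not all differ in the same direction either.

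The list of the tricarboxylic acid cycle, which burns the pyruvate, also held genes of citrate export, itaconate and cytosolic enzymes. Its median difference was -0.58. Of 22 kept genes of the cycle, citrate export and itaconate, 5 (22.7%, against 6.84% of all kept genes) were at least 2-fold lower and 1 (4.55%, against 8.63%) higher. Idh1, the cytosolic NADP-dependent isocitrate dehydrogenase gene, had 6.29 with conditioned medium and 8.35 in the control and was 4.18-fold lower. Suclg2, a subunit of succinyl-CoA ligase, was 3.27-fold lower in its brighter probe set, and its other probe set differed by -0.93, under 2-fold. The other 3, named after their values were seen, were Idh2, Fh1 and Ogdh, with differences of -1.56, -1.54 and -1.07. The higher one was Acod1, which makes itaconate from a cycle intermediate (10.10 with conditioned medium and 4.99 in the control, 34.5-fold), and Mdh2 followed with 0.36.

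Glycogen genes had a median of -0.76 over 15 kept and of -0.41 over all 18 measured. Of the 15, 2 (13.3%, against 6.84% of all kept genes) were at least 2-fold lower and 0 (against 8.63%) higher. Pygl, the phosphorylase that releases glucose units, was 2.52-fold lower (6.90 with conditioned medium and 8.23 in the control), and Phka2, a regulatory subunit of its kinase, was 2.29-fold lower. Ppp1r3b, which targets a phosphatase to glycogen, was highest (0.88), before Stbd1 (0.43). Of 9 kept genes that use NADPH, 0 passed 2-fold upward (against 8.63% of all kept genes) or downward (against 6.84%). Their median was 0.17, or 0.09 with no filter. Nos2 (0.73, with its control value under the filter level) and Txnrd1 (0.73) were the highest, and Fasn (-0.76, with its conditioned-medium value under that level) and Ncf1 (-0.23) the lowest.

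**Figure D4:**
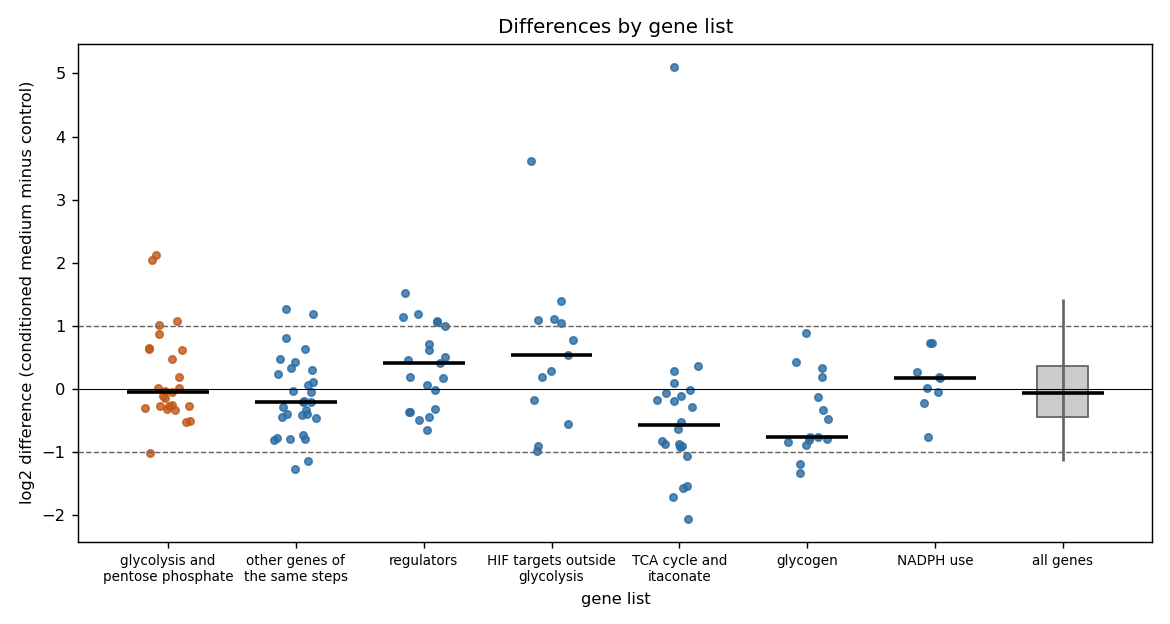
Log2 difference (conditioned medium minus control) of each kept gene by list, with a black bar at the list's median, and all 13712 kept genes as a box of the quartiles with a line from the 5th to the 95th percentile. The glycolysis and pentose phosphate list is centred near 0, the medians of the regulators and HIF targets are 0.40 and 0.53 and those of the cycle and glycogen lists -0.58 and -0.76; Acod1 and Hilpda are the topmost points of their lists.

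Markers of other cell types and proliferation genes also differed between the arrays, and in bulk RNA fewer cells of a type and less RNA per cell cannot be told apart. Of 16 neutrophil markers, 10 (62.5%, against 6.84% of all kept genes) were at least 2-fold lower and 0 (against 8.63%) higher. Their levels were 3.03 to 10.53 with conditioned medium and 5.47 to 12.16 in the control, with a median difference of -1.67. The granule genes Camp and Ngp were lowest, with differences of -5.54 and -5.16, and Camp with conditioned medium lay under the filter level. Csf3r (0.89) and Cebpe (0.80) were highest. Of 21 proliferation genes, 16 (76.2%, against 6.84% of all kept genes) were at least 2-fold lower and 0 (against 8.63%) higher. Their median was -1.62, and they ran from Ccnb2 (-4.66) and Ube2c (-3.69) to Mcm2 (-0.83) and Tyms (-0.79).

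Of 12 macrophage and monocyte markers, 5 (41.7%, against 6.84% of all kept genes) were at least 2-fold lower and 1 (8.33%, against 8.63%) higher. Their levels were 4.45 to 12.44 with conditioned medium and 4.65 to 11.71 in the control. Chil3 (-2.99) and Csf1r (-2.93) were lowest, and Ly6c2 (1.18) and Fcgr1 (0.98) highest. Of 9 kept dendritic cell markers, 3 (33.3%, against 8.63% of all kept genes) were past 2-fold upward and 3 (33.3%, against 6.84%) downward. Their levels were 3.15 to 11.30 with conditioned medium and 4.38 to 10.42 in the control. H2-Aa (1.88), Irf4 (1.83) and H2-Ab1 (1.14) were the higher ones, and Batf3 (-2.03), Flt3 (-1.23, under the filter level with conditioned medium) and Itgax (-1.03) the lower ones. H2-Ab1 and Itgax were named after their values were seen. H2-Aa and Itgax are also carried by macrophages, the more specific Zbtb46 lay under the filter level on both arrays, and macrophage markers such as Fcgr1 were well above it on both, so these markers do not settle the labelled cell type.

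Of 10 kept tumour epithelial and stromal markers, 3 were at least 2-fold higher and 0 lower (4.75 to 10.88 with conditioned medium and 3.96 to 11.51 in the control). Dcn (4.01) passed the filter only through its conditioned-medium value. Cdh1 differed by 3.79 in its brighter probe set and by 0.55 in the other. Krt19 (2.15) was named after its value was seen, and Acta2 (-0.99) and Col3a1 (-0.68) were lowest. Epcam, Krt18, Krt14, Cldn4 and Cldn7 lay under the filter level on both arrays. Of 6 kept lymphocyte and natural killer cell markers and 2 kept erythroid and megakaryocyte markers, 0 passed 2-fold. Of all kept genes, 8.63% were higher and 6.84% lower by that rule. Nkg7 (-0.84), Cd3d (-0.06), Cd3e (0.55) and Cd4 (0.87, under the filter level in the control) were the extremes of the first list. Pf4 (-0.19) and Itga2b (0.36) made up the other. The part of these markers in the values of the glycolytic genes was not tested.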

How the data were processed

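Per the labels' protocols, Trizol was used for total RNA, and biotin-labelled cRNA was made for Affymetrix arrays. The authors deposited 1 table of values per probe set and array, taken as log2 intensity because they ran from -0.26 to 13.50 with a median of 4.09 with conditioned medium and 4.10 in the control; the log base is an inference. Affymetrix Expression Console is named in the submitters' processing notes. No source used here gives its version, its algorithm or the genome build. Sorted, the values of both arrays lay a mean of 0.015 apart, so a common shift of most genes would be hidden.

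Of 41345 probe sets, 23521 had 1 symbol, 1814 had several and 16010 had none. A gene was represented by its probe set with the highest mean, and kept when its higher value reached 4.10. A fold is 2 raised to the log2 difference, and the size rule was 2-fold. Named were all genes of the list, from each further list the 2 highest and 2 lowest kept, and regulators past 2-fold; others are stated as named after their values were seen. The members and lists were chosen with earlier results of these data known. Alternatives were quantile normalization, subtraction of a lowess curve (fraction 0.3, 3 iterations), the mean of all probe sets, centring on the kept genes, 3 other filters, low values raised to the filter level, and 1.5-fold and 3-fold. The counting code was run on simulated arrays with known differences. That run checks the code only and does not bear on the error between the 2 real arrays. RefSeq promoter windows (GRCm38.p6) were cut to the 250 bases before each start site. Software was statsmodels 0.14.6, pandas 2.3.3, numpy 2.4.6 and matplotlib 3.10.9 under Python 3.11.15.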

Additional observations from a re-analysis of the deposited data

How the results depend on the processing

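The count of genes of the list at least 2-fold higher was 4 as reported, 3 after quantile normalization (without Slc16a3) and 3 with the filter at the 75th percentile (without Slc16a1), and 4 under the other scalings, probe set rule and filters. At 1.5-fold it was 8, and at 3-fold it was 2 (Slc2a6 and Pfkfb3). The count at least 2-fold lower, 1 as reported, was 0 after subtraction of the lowess curve (Aldoc at -0.97), 0 after centring on the kept genes (Aldoc at -0.95) and 0 at 3-fold. Over these settings the median of the list ran from -0.15 to 0.04. Of 203 recomputed differences of single genes, 83 took another value, since the filters cannot move a difference and few genes have several probe sets. The largest move was 0.27 (Pgam1), and no gene past 2-fold changed sign. The medians of the further lists that moved by over 1.5 times are given beside them. No paired analysis was possible because each condition had 1 array. With 1 array per condition, none of these settings bears on the spread between cultures, and values near 4.10, such as those of Ldha, Pfkfb4 and the control value of Slc16a1, are limited by signal over background.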
